A study of Mus musculus with 23 samples.

Results

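The response of marrow-depleted bone to 3 weeks of type 1 diabetes (T1D) in wild-type (WT) mice was described across all well-counted genes. The libraries were those labeled WT T1D (n = 6) and WT Control (n = 5), which are 11 of the 23 RNA-seq libraries of the study, and the genes were the 14364, of 67228 annotated, that reached 10 counts in 5 or more libraries. All mice were C57BL6/N females studied at 11 weeks of age. WT T1D mice had received streptozotocin, a toxin of pancreatic β cells, at 100 mg/kg i.p. after a fast, with repeat dosing and a further dose where fed glucose was under 300 mg/dL; WT Control mice received saline. The other 12 libraries came from Sarm1KO mice, global knockouts of the NAD-cleaving enzyme gene Sarm1, with T1D (n = 6) or saline (n = 6). The study asked which bone genes T1D alters early, and whether Sarm1 loss changes that response. Each library was a single mouse, from the femur and tibia of a single hind limb after the epiphyses were removed and the marrow was spun out. WT mice were littermates from heterozygous breeding or were ordered from a supplier, and the labels do not say which mouse was which. Streptozotocin also reaches cells other than β cells, and no group received it without becoming diabetic, so drug and diabetes cannot be told apart.

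Bone matrix is laid down by osteoblasts, which secrete type I collagen and the mineral-binding proteins of bone, and some of them become osteocytes, the cells buried in the matrix that govern mineral balance and Wnt signaling. Osteoclasts resorb the matrix. Even after the marrow is spun out, marrow cells lodged in the bone contribute RNA, red cell precursors and neutrophils among them. T1D removes insulin, so tissues turn to fatty acids and ketone bodies for fuel, and the bones of diabetic animals form less matrix. Interferons are secreted proteins that switch on antiviral genes in most cell types, and red cell precursors divide rapidly while they make hemoglobin and heme.

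Total counts ran from 16951990 to 18161483 in WT Control and from 17681931 to 18971933 in WT T1D, a difference of means that did not pass a two-sided exact permutation test (p = 0.0693, where the smallest possible p was 0.00433). Collagen I was among the most abundant messages. No osteoblast or osteocyte marker was at 0 in any WT mouse, but no skeletal muscle or neutrophil marker was either. That check therefore does not identify the tissue. Mice carry identity numbers of an A17 series (1 WT Control, 3 WT T1D) or of an A36 to A39 series (4 WT Control, 3 WT T1D), the meaning of which the labels do not give. A pair of WT T1D mice, A3905 and A3906, stood apart from all others. Both lay above the other 9 WT mice at 2281 genes and below them at 2706. Of the 13324 genes with a mean of at least 1 CPM (counts scaled to library size, after TMM scaling), 1338 in A3905 and 1435 in A3906 were beyond 2-fold of the Control mean, against 85 to 260 in the other WT T1D mice and 31 to 241 in single Control mice. The 10 annotated hemoglobin genes took 21.4% of counts in A3905 and 21.0% in A3906, 12.3% to 16% in the other WT T1D mice and 9.73% to 13.9% in Control. The 18 osteoblast markers summed to 9930 CPM in A3905 and 7990 CPM in A3906. The sum was 72900 to 99400 CPM in the other WT T1D mice and 70000 to 136000 CPM in Control. Results are therefore given with both mice and, where it matters, without them.

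T1D changed 334 of the 14364 genes (2.33%) at an adjusted p under 0.05 in edgeR's quasi-likelihood test with Benjamini-Hochberg adjustment. Of these, 215 rose (1.5%) and 119 fell (0.828%). That fit held all 23 libraries, so its estimate of the spread was shared with the Sarm1KO mice. In edgeR on the 11 WT libraries alone 0 genes passed (lowest adjusted p = 0.0506), with 2336 at an unadjusted p under 0.05. The changes were small. Only 45 of the 334 exceeded 2-fold and 197 stayed under 1.5-fold, with a median log2 fold change of 0.49 among genes that rose and -0.62 among genes that fell, beside -0.01 over all tested genes. Genes that fell were longer in the genome, with a median annotated span of 39122 bp, than genes that rose, with 15812 bp, and the span over all tested genes was 23478 bp. All 6 T1D mice lay above all 5 Control mice at 189 genes (1.32%) and below them at 126 genes (0.877%); among the called genes these numbers were 99 and 50. For the genes that rose, the median log2 difference from the Control mean was 0.69 in A3905, 0.80 in A3906, 0.46 in A1787, 0.41 in A1758, and 0.27 in A1764 and in A3909, beside 0.17 in Control A1757 and -0.11 to 0.00 in the other Controls. Since these mice chose the genes, the direction is built in and only the order of the mice is described. At an unadjusted p under 0.05, the count given below for lists, 3195 genes passed (22.2%), 1581 higher and 1614 lower (11.2%).

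**Figure D1:**
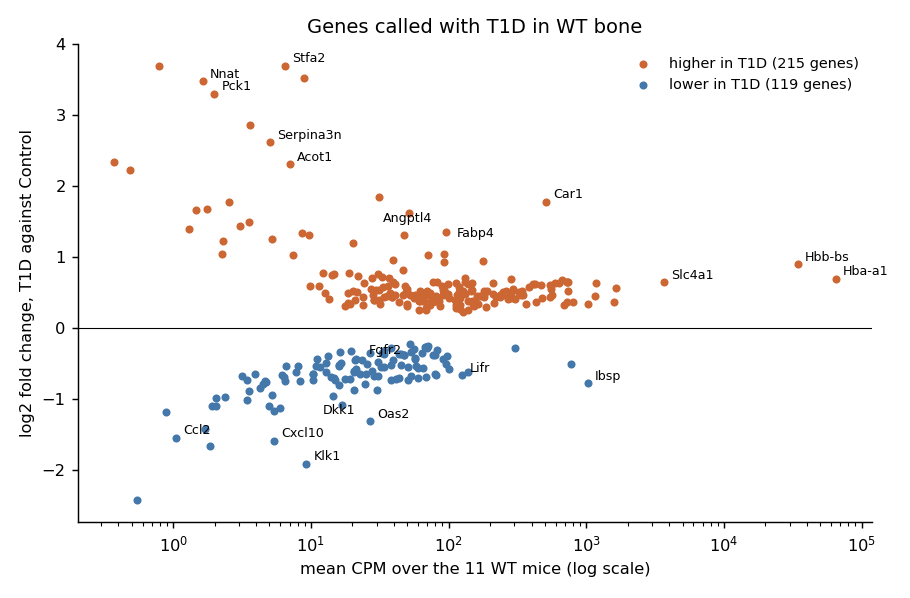
Mean level over the 11 WT mice (x axis, CPM, log scale) against the log2 fold change of T1D against Control (y axis) for the 334 called genes, each a point; orange marks the 215 that rose and blue the 119 that fell. Most points lie close to 0, and Stfa2, Nnat, and Pck1 are the labeled genes with the largest rise, at low levels.

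The number of calls rested on single mice. Without both A3905 and A3906 no gene passed in edgeR (0 called, lowest adjusted p = 0.0947, 1575 genes at an unadjusted p under 0.05). All 334 genes kept their direction, with median log2 fold changes of 0.35 and -0.46. The remaining WT mice had helped to choose these genes, so the kept direction is largely built in. Leaving out Control A3767 or A3907 also gave 0 calls, with 2810 and 2512 genes at an unadjusted p under 0.05, and leaving out Control A3903 or A3904, or T1D A3905, A3906, or A1787, gave 3, 10, 7, 16, and 30 calls. Leaving out T1D A3909 gave 1264, A1764 938, A1758 539, and Control A1757 689. Among the A36 to A39 mice alone, where A3905 and A3906 are joined by only A3909 in the T1D group, 2205 genes passed (15.4%). The A17 series holds a single Control, so its within-series contrast was not tested. On the TPM scale (read counts per transcript length, scaled to a fixed library total, tested with limma on log2(TPM + 1)) the median over all genes moved to -0.24, and 83 genes were called higher and 5071 lower, beside 215 and 119 on counts; TPM values below are given relative to that median where so stated. With the erythroid score of each library as a covariate 0 genes passed in edgeR, with 589 at an unadjusted p under 0.05. Relative to the Control mean, the score was -0.25 to 0.29 in Control and 0.25 to 0.95 in T1D, highest in A3905 and A3906. The covariate therefore also takes up part of the T1D contrast, and erythroid content, T1D, and that pair cannot be told apart with it. Covariate values are given beside the other results below, but the part that erythroid content plays in them was not tested.

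**Figure D2:**
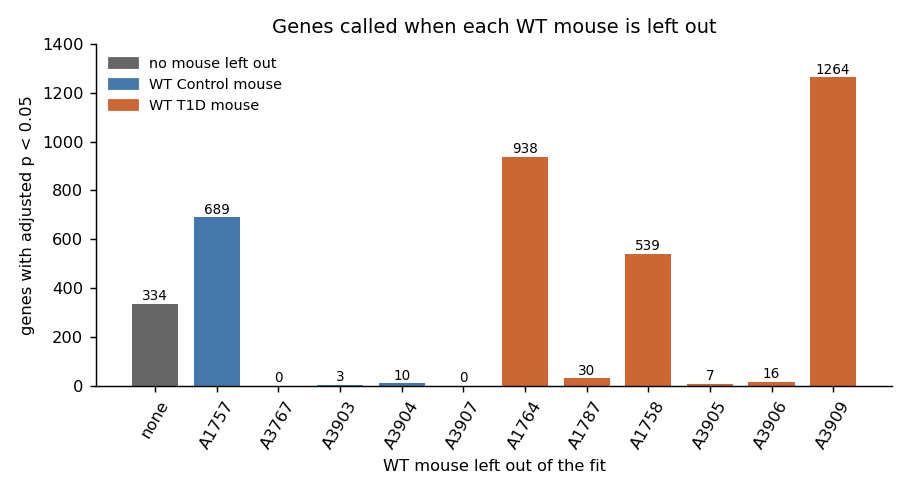
Number of genes called at an adjusted p under 0.05 in WT T1D against WT Control (y axis, bars from 0) with no mouse left out (gray) and with each WT Control (blue) or WT T1D (orange) mouse left out in turn (x axis). The count was 334 with all mice, 0 without Control A3767 or A3907, and 1264 without T1D A3909.

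Some genes of bone formation fell, among them the receptor gene Fgfr2. Of 18 osteoblast markers tested, 3 fell (Ibsp, Fgfr2 and Runx2), none rose, and 17 were lower, with a median log2 fold change of -0.73 (-0.34 without A3905 and A3906, 0.03 with the erythroid covariate). Fgfr2 (gene 14183, chr7:130162451-130266808, GRCm38.p6), a fibroblast growth factor receptor needed for osteoblast growth and maturation, stood at 66.4, 85.2, 83.0, 77.6, and 84.3 CPM in Control mice A1757, A3767, A3903, A3904, and A3907, the order used throughout. In T1D it ran from 46.1 through a median of 54.3 to 60.7 CPM. The groups did not overlap, and A3905 and A3906 did not stand out. Its log2 fold change was -0.57 ± 0.10 (SE; edgeR adjusted p = 0.0174) and -0.52 without the pair.

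Runx2, the transcription factor that commits cells to the osteoblast lineage, read 91.8, 109, 97.4, 104, and 106 CPM in Control and 40.2 to 91.9 CPM in T1D with a median of 65.3. Only T1D A3909 reached the Control range. The log2 fold change was -0.66 ± 0.16 (edgeR adjusted p = 0.0451), and -0.42 without A3905 and A3906. Ibsp, a matrix protein of mineralizing bone, read 908, 1394, 1253, 1625, and 1445 CPM in Control and 565 to 1071 CPM in T1D with a median of 727, a log2 fold change of -0.78 ± 0.15 (edgeR adjusted p = 0.0236). T1D mice A1758 and A3909 overlapped the Control range, in which A1757 was the lowest. Pth1r, the parathyroid hormone receptor, did not pass (-0.88 ± 0.26, edgeR adjusted p = 0.0617); it is a tissue marker that the selection rule did not pick, as are Bglap, Col1a1, and Smpd3 below.

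The main matrix genes did not pass the test, and their levels differed by far more between T1D mice than between Control mice. Bglap, which encodes osteocalcin and has near-identical neighbors that can share its reads, read 5136 to 9216 CPM in Control and 5565, 6050, 8173, and 5627 CPM in T1D mice A1764, A1787, A1758, and A3909, but 131 CPM in A3905 and 90.2 CPM in A3906. The last values are far below every other WT mouse, and the log2 fold change was -0.66 ± 0.64 (edgeR adjusted p = 0.572) with the pair, -0.40 without either mouse alone, and -0.09 without both. Col1a1, the main chain of bone collagen, read 31390 to 62370 CPM in Control and 31110 to 43910 CPM in 4 T1D mice, but 3018 CPM in A3905 and 2215 CPM in A3906. Smpd3, a sphingomyelinase needed for matrix mineralization, followed the same order of mice, with 11.8 CPM in A3905 and 8.21 CPM in A3906 against 167 CPM or more in every other WT mouse. Spp1, which encodes the matrix protein osteopontin, went the other way, at 2526 CPM in A3905 and 2247 CPM in A3906 against 480 to 966 CPM elsewhere. Its log2 fold change of 0.66 ± 0.33 was 0.33 without A3905, 0.41 without A3906, and -0.28 without both.

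Osteocyte genes as a list did not set the pair apart: their mean level relative to Control was -0.56 in A3905 and -0.47 in A3906, beside -0.83 in A1787 and -0.55 in A1764. Of 10 osteocyte markers 1 fell, and 8 were lower with a median of -0.50 (-0.45 without the pair, -0.26 with the erythroid covariate). The gene that fell was Dkk1 (gene 13380, chr19:30545876-30549496), a secreted inhibitor of Wnt signaling. It read 16.2, 19.8, 18.8, 21.1, and 23.1 CPM in Control and 6.04 to 14.8 CPM in T1D with a median of 9.53. The groups did not overlap (-0.96 ± 0.19, edgeR adjusted p = 0.0236; -0.78 without the pair). Sost, which encodes the Wnt inhibitor sclerostin and was not picked by the selection rule, was not called (-0.43 ± 0.24, edgeR adjusted p = 0.287; -0.28 without T1D A1787), with its lowest values, 46.2 and 54.3 CPM, in T1D mice A1787 and A1764 and not in A3905 or A3906. Fgf23, the phosphate-wasting hormone of osteocytes, read 7.81 CPM in A3905 and 9.31 CPM in A3906 and 0.338 to 1.31 CPM in every other WT mouse, whereas Phex, the peptidase whose loss raises that hormone, read 14.2 and 19.0 CPM in the pair and 57.9 to 134 CPM elsewhere. Neither passed the test (edgeR adjusted p = 0.0663 for Fgf23 and 0.0796 for Phex).

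Lifr and Slit2 were among the genes that fell with the lowest p-values, and Fat1, Tnc, and Col6a5 were named for their level or the size of their change. Lifr, the receptor of leukemia inhibitory factor, read 128, 188, 163, 157, and 152 CPM in Control and 77.5 to 131 CPM in T1D, where only A3909 reached the Control range (-0.67 ± 0.11, edgeR adjusted p = 0.0174). Slit2, a secreted guidance cue that binds Robo receptors, read 48.9 to 76.7 CPM in Control and 31.6 to 48.1 CPM in T1D, without overlap (-0.73 ± 0.13, edgeR adjusted p = 0.0209). Fat1, a giant cadherin, fell with -0.62 ± 0.16, and Tnc, a matrix glycoprotein of bone surfaces and tendon, with -0.51 ± 0.13. Both stayed close to that without A3905 and A3906, at -0.54 and -0.48. Col6a5, a collagen VI chain, fell with -1.66 ± 0.39 from a low level of 1.21 to 4.83 CPM in Control. Of 20 Wnt pathway genes 1 fell, Dkk1, and 19 were lower (median -0.40; -0.16 without the pair, and 0.07 with the erythroid covariate). None of 20 BMP and TGF-β genes (median -0.30, or -0.17 without the pair and 0.01 with the erythroid covariate), 7 hedgehog genes (-0.48, or -0.14 and 0.12), or 15 genes of collagen hydroxylation, folding, and export (-0.60) passed in edgeR, with 7, 3, and 6 of them lower at an unadjusted p under 0.05. For the collagen genes the median was -0.19 without A3905 and A3906 and 0.12 with the erythroid covariate.

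Cartilage markers were lower throughout but varied widely between mice of a group. All 15 growth plate genes tested were lower in T1D, with a median of -1.66 (-1.23 without the pair, -1.10 with the erythroid covariate), yet none passed in edgeR (9 at an unadjusted p under 0.05). Col10a1, the collagen of hypertrophic cartilage, read 23.4, 0.274, 83.9, 76.8, and 122 CPM in Control and 0.229 to 24.8 CPM in T1D with a median of 1.51. Control A3767 therefore sat with the low T1D mice and T1D A3909 with the Controls, and the log2 fold change of -3.47 ± 1.37 did not pass (edgeR adjusted p = 0.138; -5.23 without A3909). Acan, the large proteoglycan of cartilage (-1.66 ± 0.55), and Col2a1, its main collagen (-1.09 ± 0.35), were not called either. Epiphyses were cut off each bone, and the amount of growth plate left in each sample was not measured, so its part was not tested. Among 15 osteoclast markers only Car2 passed, with a median of 0.05 over the list (-0.38 without the pair), and Car2, carbonic anhydrase 2, is also abundant in red cells.

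**Figure D3:**
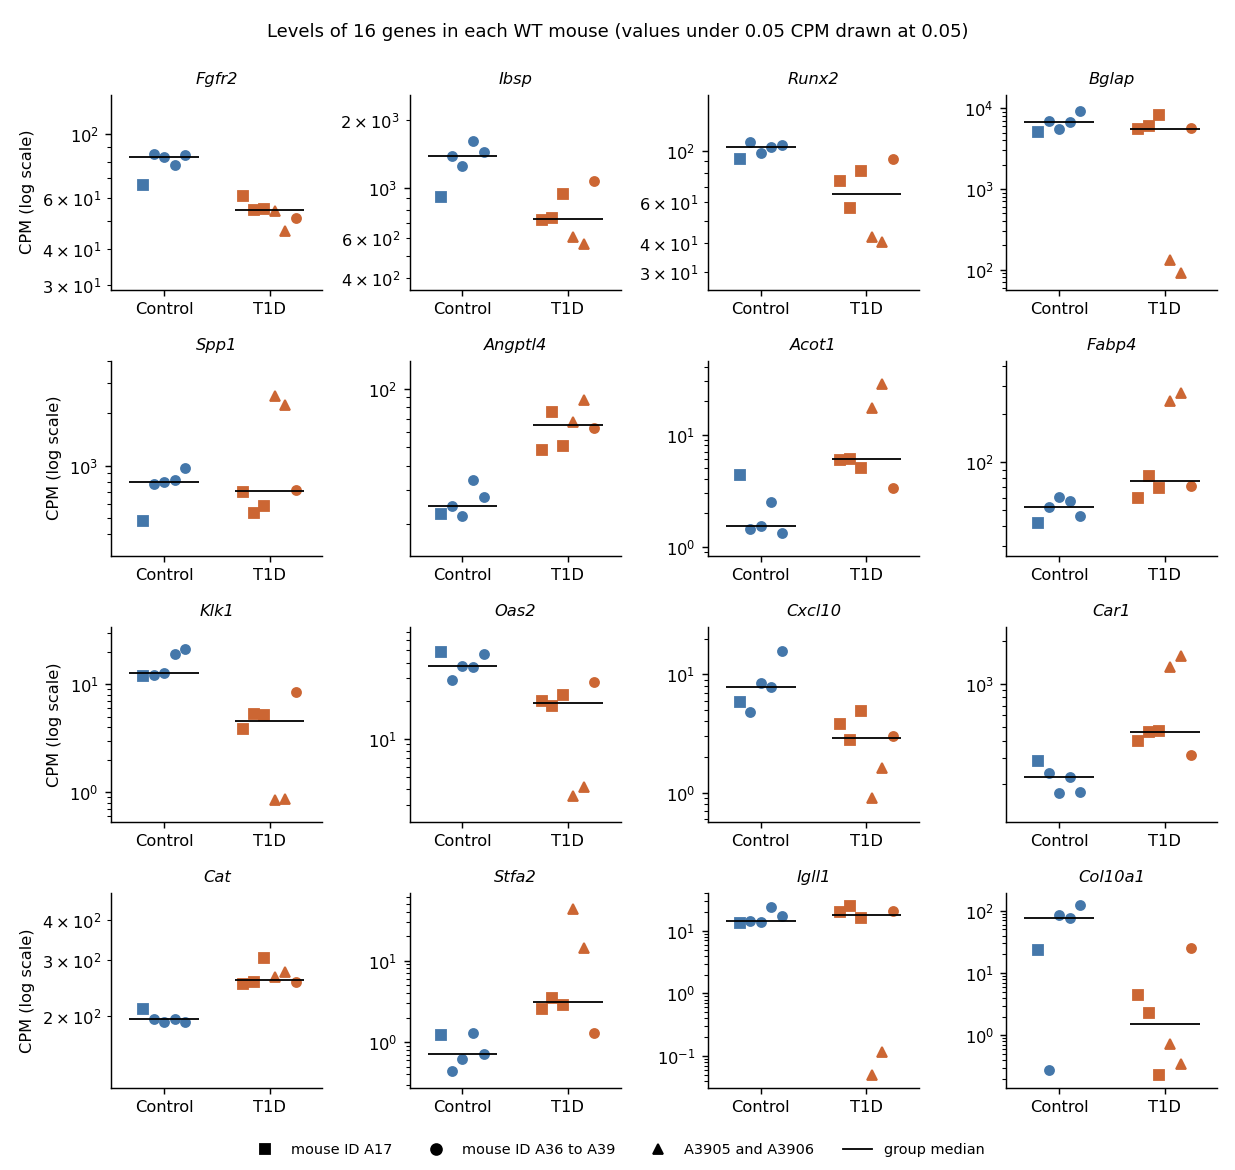
Level (y axis, CPM, log scale) of 16 genes in each WT mouse, with Control (blue) and T1D (orange) as columns; squares are A17 mice, circles A36 to A39 mice, triangles A3905 and A3906, and lines group medians, and values under 0.05 CPM are drawn at 0.05. Fgfr2, Angptl4, and Cat separate the groups in every mouse, whereas Bglap and Igll1 are low in the triangles alone.

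A second set of changes was metabolic. Of 16 genes of fasting and fatty acid oxidation, 5 rose (among them Angptl4, Cpt1a, Pck1, and Txnip), none fell, and 15 were higher (median 0.58, beside -0.01 over all genes). The median stayed at 0.37 without A3905 and A3906 and at 0.31 with the erythroid covariate. The mean log2 level of the list, taken relative to the Control mean, was -0.24 to 0.23 in Control mice and 0.44 to 1.15 in T1D mice, without overlap. Angptl4 (gene 57875, chr17:33774900-33781575), a secreted inhibitor of lipoprotein lipase, read 22.6, 25.0, 22.1, 34.0, and 27.7 CPM in Control and 48.1 to 86.9 CPM in T1D with a median of 65.0. Each T1D mouse was above each Control mouse, with a log2 fold change of 1.31 ± 0.24 (edgeR adjusted p = 0.0209) that was 1.17 without the pair.

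Acot1, a gene outside the fasting list that frees fatty acids from acyl-CoA in the cytosol, read 1.32 to 4.33 CPM in Control and 3.33, 4.99, 5.97, 6.04, 17.1, and 28.5 CPM in T1D (2.31 ± 0.47, edgeR adjusted p = 0.0294). Cpt1a, which admits fatty acids to mitochondria, rose less and more evenly, from 69.5 to 102 CPM in Control to 98.0 to 188 CPM in T1D (0.64 ± 0.15, edgeR adjusted p = 0.0446). Pck1, the enzyme of gluconeogenesis and glyceroneogenesis, was at 0.622 CPM or less in every Control mouse and reached 5.09 and 11.2 CPM in A3905 and A3906 (3.30 ± 0.86; 1.52 without them).

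Of 11 adipocyte markers 1 was called, 9 were higher, and 2 were lower. The list median was 1.11, which was 0.45 without the pair and 0.29 with the erythroid covariate. Summed over the list the groups overlapped, with 1010 to 1620 CPM in Control and 945 to 1430 CPM in T1D. Car3, a carbonic anhydrase and the most abundant of these markers, read 735 to 1268 CPM in Control, 825 to 1008 CPM in 4 T1D mice, and 266 and 316 CPM in A3905 and A3906 (-0.50 ± 0.28, not called). Fabp4, the fatty acid carrier of adipocytes and capillaries, read 41.6 to 60.8 CPM in Control, 60.1 to 82.1 CPM in 4 T1D mice, and 242 and 271 CPM in A3905 and A3906 (1.36 ± 0.32, edgeR adjusted p = 0.0418). Cidec, a lipid droplet protein, was above every Control mouse in all 6 T1D mice (2.81 to 16 against 0.165 to 2.14 CPM) without passing (2.04 ± 0.63, edgeR adjusted p = 0.0699). Cfd, the adipsin gene, read 11.2 to 47.5 CPM in Control and 44.9 to 96.9 CPM in T1D (1.21 ± 0.39, not called). Adipoq, the adiponectin gene, which the selection rule did not pick, stood at 70.3 to 93.7 CPM in T1D and 51.8 to 76.0 CPM in Control (0.24 ± 0.15, edgeR adjusted p = 0.343; -0.04 on the TPM scale, 0.20 relative to the median of all genes there). In bulk tissue more cells of a type and more RNA per cell cannot be told apart, here and for each list.

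Of the genes of glucose use and hormone signaling named here only Txnip was called, and it is 1 of the 5 called genes of the fasting list. Txnip, a glucose-responsive brake on glucose uptake, rose from 267 to 353 CPM in Control to 330 to 608 CPM in T1D (0.57 ± 0.12, edgeR adjusted p = 0.0367). No gene of glucose transport and glycolysis passed in edgeR (16 tested, 3 at an unadjusted p under 0.05), and the median was 0.08. Hk2, the insulin-responsive hexokinase of muscle and fat, was lower in every T1D mouse (18.4 to 29.2 CPM) than in every Control mouse (30.1 to 37.6 CPM) but missed the threshold (-0.40 ± 0.12, edgeR adjusted p = 0.0624). Irs2, the insulin receptor substrate that insulin represses, was higher in every T1D mouse (27.5 to 35.2 against 21.2 to 26.5 CPM) and missed it too (0.35 ± 0.11, edgeR adjusted p = 0.0644). None of 19 insulin and IGF genes passed in edgeR, with 5 at an unadjusted p under 0.05 (22.2% over all genes) and a median of 0.02. Igf2, a fetal growth factor, read 102 CPM in T1D A1764 and 6.03 to 21.3 CPM elsewhere, with a log2 fold change of 1.65 ± 0.49 that was 0.67 without A1764. Grb10, an imprinted inhibitor of insulin signaling, had a log2 fold change of -0.63 ± 0.20. Neither was called.

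Of 12 glucocorticoid-responsive genes 11 were higher (median 0.52; 0.29 without the pair, 0.11 with the erythroid covariate) and none passed in edgeR, with 7 higher and 1 lower at an unadjusted p under 0.05. Fkbp5, a chaperone induced by glucocorticoids, read 106 and 118 CPM in A3905 and A3906 and 32.0 to 57.2 CPM in the other WT mice (0.91 ± 0.25, edgeR adjusted p = 0.0525). Per1, a clock gene that glucocorticoids also induce, read 28.5 to 81.5 CPM in Control and 91.8 to 136 CPM in 5 of 6 T1D mice, with A1758 at 32.6 CPM (1.01 ± 0.36, edgeR adjusted p = 0.101). The 15 clock genes as a list had a median of 0.13 with none called in edgeR and 3 at an unadjusted p under 0.05.

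Red cell genes were higher in T1D. Of 19 erythroid genes 9 were called higher, all 19 were higher, and all 19 had an unadjusted p under 0.05 (median 0.51, or 0.41 without A3905 and A3906, 0.01 with the covariate made from these genes, and 0.47 on TPM relative to the median of all genes). The erythroid list level overlapped between groups, with Control A1757 at 0.29 and T1D mice from 0.25 to 0.95. Slc4a1 (gene 20533, chr11:102348820-102365281), the chloride-bicarbonate exchanger band 3 of the red cell membrane, read 3270, 2952, 2588, 2702, and 2464 CPM in Control and 3448 to 5884 CPM in T1D with a median of 4204. No T1D mouse was below a Control mouse, and the log2 fold change was 0.64 ± 0.14 (edgeR adjusted p = 0.0367). Hbb-bs, an adult β-globin gene whose reads may be split with its close copy, read 20650 to 28740 CPM in Control and 32310 to 62390 CPM in T1D (0.90 ± 0.20), and Hba-a1, an α-globin gene with the same limit, 42610 to 63300 and 51120 to 106000 CPM (0.69 ± 0.19). Car1, a red cell carbonic anhydrase outside the list, rose from 173 to 289 CPM to 317 to 1561 CPM (1.78 ± 0.33, edgeR adjusted p = 0.0209, with 0.90 without A3905 and A3906 and 0.55 with the erythroid covariate). Rhag, an ammonia channel of the red cell membrane, rose with 0.94 ± 0.20 and Car2 with 0.63 ± 0.14. Rhag and Car2 did not overlap between groups.

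Heme synthesis and cell division moved alongside. All 8 heme enzymes tested were higher and 3 were called (median 0.52), among them Cpox (0.54 ± 0.14), an enzyme of the porphyrin steps. All 18 mitosis genes were higher with 6 called (median 0.34), and all 16 DNA replication genes with 3 called (median 0.32). Nusap1, a spindle protein, read 104 to 132 CPM in Control and 145 to 214 CPM in T1D, without overlap (0.51 ± 0.11, edgeR adjusted p = 0.0367). Cdc6, which loads the replicative helicase, rose from 73.9 to 88.9 CPM to 94.4 to 143 CPM, and Pcna, the sliding clamp, rose with 0.41 ± 0.11, both without overlap. Ccnb1, cyclin B1, rose with 0.47 ± 0.12. Without A3905 and A3906 the medians were 0.33 for heme, 0.23 for mitosis, and 0.22 for DNA replication, and with the erythroid covariate they were -0.03, 0.05, and 0.00.

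Some genes that handle hydrogen peroxide rose. Of 15 antioxidant enzymes 4 rose, with a list median of 0.17 (-0.12 on the TPM scale, which is 0.12 relative to the median there). Cat (gene 12359, chr2:103453904-103485153), catalase, read 210, 196, 191, 196, and 191 CPM in Control and 251 to 303 CPM in T1D with a median of 260. Its groups were narrow and apart, and A3905 and A3906, at 264 and 275 CPM, lay inside the T1D range (0.44 ± 0.08, edgeR adjusted p = 0.0174; 0.43 without the pair and 0.27 with the erythroid covariate). Gpx1, a glutathione peroxidase, rose with 0.57 ± 0.13, Prdx3, the mitochondrial peroxiredoxin, with 0.38 ± 0.09, and Prdx2, the red cell peroxiredoxin, with 0.54 ± 0.15. With the erythroid covariate these were 0.17, 0.14, and -0.03. Gclm, a subunit of the enzyme that limits glutathione synthesis, was the 1 called gene of 12 NRF2 targets (0.49 ± 0.12, and 0.10 with the erythroid covariate; list median 0.17, and -0.09 on TPM, 0.15 relative to the median there). Cat, Gpx1, and Prdx2 are themselves abundant in red cells.

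**Figure D4:**
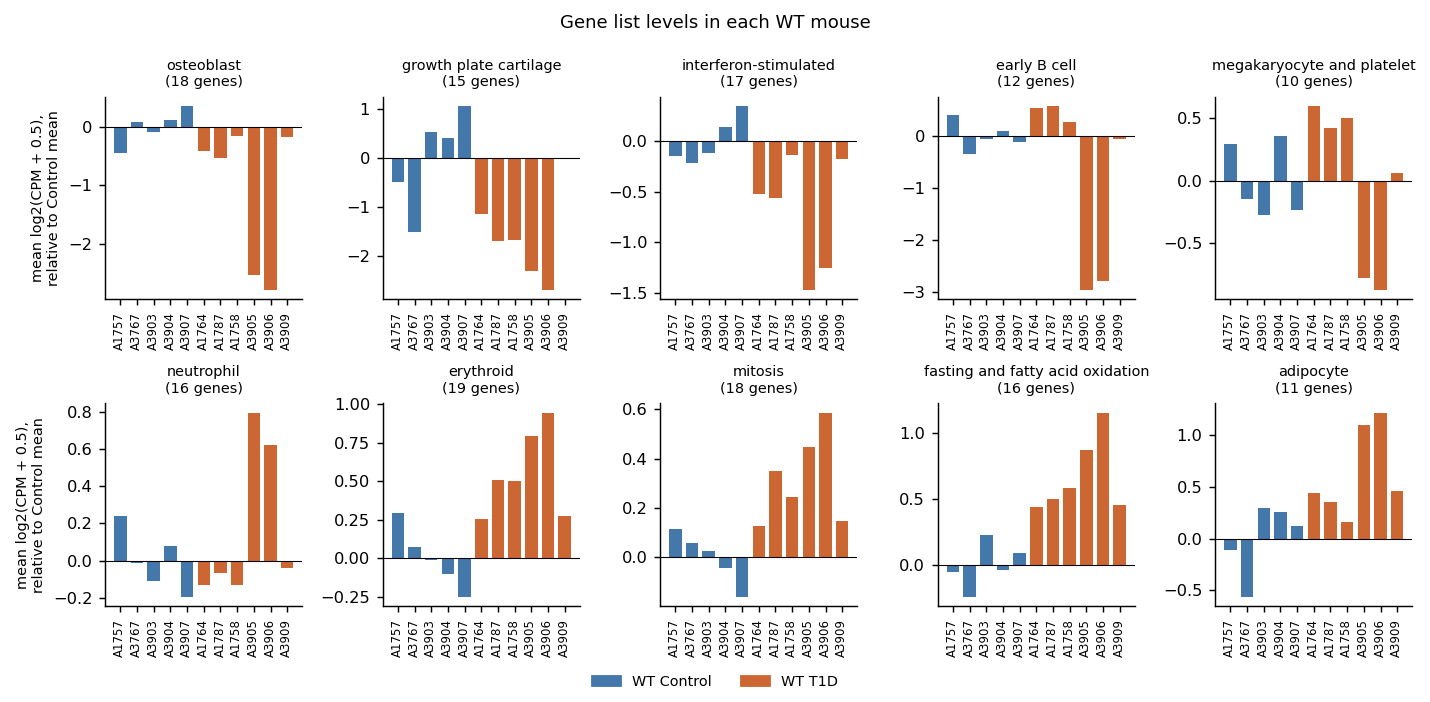
Mean log2(CPM + 0.5) of 10 gene lists relative to the Control mean (y axis) as 1 bar for each WT mouse (x axis), Control in blue and T1D in orange. The fasting list separates the groups, and the mitosis list does so narrowly (at most 0.116 in Control, at least 0.128 in T1D). The osteoblast and early B cell lists are lowest in A3905 and A3906, at -2.53 and -2.78 and at -2.95 and -2.77.

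Several myeloid genes differed mainly in A3905 and A3906. The stefin A genes, cysteine protease inhibitors of the neutrophil lineage that are close copies of each other and can share reads, were all 5 higher with 3 called (median 2.86; 0.76 without the pair). Stfa2 read 0.439 to 1.30 CPM in Control and 1.28, 2.53, 2.81, 3.43, 14.3, and 42.6 CPM in T1D (3.70 ± 0.76, edgeR adjusted p = 0.0331). Stfa1 rose with 2.86 ± 0.68 and Stfa2l1 with 1.61 ± 0.41, which was 0.97 without A3905. Asprv1, an aspartic protease of skin, read 11.0 to 14.8 CPM in Control, 11.1 to 17 CPM in 4 T1D mice, and 117 and 101 CPM in A3905 and A3906. Serpina3n, a secreted protease inhibitor of the acute phase and 1 of a cluster of close copies, rose with 2.62 ± 0.70 (0.53 without the pair). None of 16 neutrophil markers passed in edgeR (3 at an unadjusted p under 0.05, median 0.19; -0.07 without the pair and -0.12 on the TPM scale, 0.12 relative to the median there). Mmp8 and Retnlg, granule genes of mature neutrophils, read 825 CPM or more and 1154 CPM or more in A3905 and A3906 and at most 486 and 566 CPM in the other WT mice. Their log2 fold changes of 0.52 ± 0.21 and 0.65 ± 0.27 were 0.33 and 0.43 without A3905, and 0.06 and 0.01 without both mice.

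Early B cell genes were lower in the same pair, to unequal extents. Igll1, a surrogate light chain of the pre-B cell receptor, which the selection rule did not pick, read 13.2 to 23.7 CPM in Control, 15.9 to 25.3 CPM in 4 T1D mice, 0.116 CPM in A3906, and 0 CPM in A3905, where 0 counts allow up to 0.170 CPM (3 counts, counting error only). Vpreb1, its partner, read 8.26 to 22.1 CPM in 9 WT mice and 0.113 and 0.173 CPM in the pair. Ebf1, a transcription factor of the lineage, was still at 16.3 and 19.0 CPM in the pair, beside 41.3 to 56.9 CPM in the other WT mice. Over 12 early B cell genes none passed in edgeR, nor was any at an unadjusted p under 0.05, and the median was -0.19 with the pair and 0.32 without it. Megakaryocyte and platelet genes had list levels of -0.78 and -0.87 in A3905 and A3906 and -0.28 to 0.60 in the other WT mice (0 of 10 called in edgeR, 1 at an unadjusted p under 0.05). Cd4, the co-receptor of helper T cells, fell from 29.7 to 47.9 CPM to 13.7 to 34.5 CPM (-0.67 ± 0.17, edgeR adjusted p = 0.0458), and was the 1 called gene of 15 T and NK cell markers, whose median was -0.18 with the pair and -0.17 without it. Mbp, myelin basic protein, which is also expressed in blood cell precursors, was the 1 called gene of 8 Schwann cell markers (0.42 ± 0.10; list median -0.19).

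Interferon-stimulated genes were mostly lower. Of 17 tested, 5 fell (among them Oas2, Ifit3, Gbp2, and Gbp3), none rose, 15 were lower, and 14 were lower at an unadjusted p under 0.05 (median -0.66; -0.39 without A3905 and A3906; -0.22 with the erythroid covariate; -0.65 on TPM relative to the median of all genes). Summed over the list, Control mice held 803 to 1110 CPM and T1D mice 408 to 898 CPM. Oas2, which makes oligoadenylates that activate RNase L, read 48.1, 29.0, 37.5, 37.1, and 46.7 CPM in Control and 3.51 to 27.9 CPM in T1D with a median of 19.0. Every T1D mouse was below every Control mouse (-1.32 ± 0.35, edgeR adjusted p = 0.0490), and A3905 and A3906 were the lowest. Gbp2, a guanylate-binding protein of cell-autonomous immunity, read 21.6, 25.9, 29.0, 25.0, and 34.9 CPM in Control and 9.95 to 19.2 CPM in T1D, again without overlap (-0.87 ± 0.21, edgeR adjusted p = 0.0451). Gbp3, its neighbor and relative, fell with -0.69 ± 0.16, also without overlap. Ifit3, a protein that restricts viral RNA, fell with -1.08 ± 0.28, and T1D A1758 lay inside the Control range.

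Chemokines were lower too, with 2 of 15 called, 13 lower, and a median of -0.55 that was -0.51 without the pair and -0.09 with the erythroid covariate. Their summed level was 321 to 445 CPM in Control and 350 to 606 CPM in T1D, and Ccl6, the most abundant of those named, was higher in A3905 and A3906 (318 and 371 CPM) than in the other WT mice (124 to 205 CPM; 0.55 ± 0.20, edgeR adjusted p = 0.110). Cxcl10, an interferon-induced ligand of CXCR3, read 5.81, 4.83, 8.42, 7.89, and 15.8 CPM in Control and 0.906 to 4.93 CPM in T1D with a median of 2.89 (-1.59 ± 0.37, edgeR adjusted p = 0.0418). T1D A1758 alone overlapped. Ccl2, the monocyte attractant, read 1.09 to 2.75 CPM in Control and 0.226 to 0.803 CPM in T1D, without overlap (-1.55 ± 0.41, edgeR adjusted p = 0.0494). Cxcl16, a scavenger receptor and chemokine, missed the threshold (-0.83 ± 0.23, edgeR adjusted p = 0.0524).

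Upstream sequence is shown for called genes of these lists, all of which were called lower in T1D. Whether their levels varied together between mice was not tested. Of the 7 called interferon-stimulated and chemokine genes, 4 had an annotated start with promoter sequence in RefSeq (GRCm38.p6), and 2 of these had a window lying wholly outside the annotated gene. The 250 bases before the start follow, 5′ to 3′ on the strand of the gene, for Cxcl10 (chr5:92348890-92349139, minus strand), and for Gbp2 (chr3:142620413-142620662, plus strand). No motif is reported for them, and the sequence alone does not show which factors were bound in these mice.
Cxcl10: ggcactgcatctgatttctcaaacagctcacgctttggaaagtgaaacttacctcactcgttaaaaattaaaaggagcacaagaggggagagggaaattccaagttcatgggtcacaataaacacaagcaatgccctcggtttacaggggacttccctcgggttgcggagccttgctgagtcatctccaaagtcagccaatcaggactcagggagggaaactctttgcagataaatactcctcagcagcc
Gbp2: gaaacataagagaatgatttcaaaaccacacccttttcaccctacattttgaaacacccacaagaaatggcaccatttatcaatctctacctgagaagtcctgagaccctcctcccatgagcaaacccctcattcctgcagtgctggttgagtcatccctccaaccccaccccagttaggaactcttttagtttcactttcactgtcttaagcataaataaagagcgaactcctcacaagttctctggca

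The remaining genes with the lowest p-values or the largest changes belonged to several classes. Tep1, a component of telomerase and vault particles, read 42.7, 41.5, 35.6, 33.8, and 41.1 CPM in Control and 23 to 31 CPM in T1D (-0.55 ± 0.09, edgeR adjusted p = 0.0174), Traip, a ubiquitin ligase of replication forks, 14.1 to 18.8 and 20.7 to 35.1 CPM (0.73 ± 0.12), and Chek2, a DNA damage kinase, 17.1 to 19.7 and 21.3 to 26.0 CPM (0.40 ± 0.07). None of these overlapped between groups, and without A3905 and A3906 their log2 fold changes were -0.50, 0.53, and 0.38. Mllt3, a chromatin reader of blood stem cells, rose with 0.71 ± 0.13, and Nfatc2, a calcium-regulated transcription factor of T cells, fell with -0.56 ± 0.11, both without overlap. Klk1 (gene 16612, chr7:44225360-44229622), tissue kallikrein, had the largest fall among called genes with a mean of at least 1 CPM, from 11.9 to 21.3 CPM in Control to 0.849 to 8.39 CPM in T1D (-1.92 ± 0.37, edgeR adjusted p = 0.0236). It did so without overlap, and stayed at -1.45 without the pair.

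Among low-level genes Adcyap1r1, the receptor of the neuropeptide PACAP, was higher in every T1D mouse (2.22 to 5.63 CPM) than in every Control mouse (0.548 to 1.86 CPM), with a log2 fold change of 1.77 ± 0.44 that was 1.72 without A3905 and A3906. Nnat, the imprinted proteolipid neuronatin, was at 0.110 to 0.339 CPM in Control and 0.396 to 11.6 CPM in T1D, also without overlap, with a log2 fold change of 3.48 ± 0.87 that was 2.05 without the highest mouse, T1D A1764. Fam107a, an actin-binding protein, and Ccdc141, a coiled-coil protein, rose with 1.67 ± 0.42 and 1.67 ± 0.44. Lag3, an inhibitory receptor of T cells, fell with -1.13 ± 0.22, and Klra7, an NK cell receptor from a family of close copies, with -1.10 ± 0.28, both without overlap. Trmt9b, of the tRNA methyltransferase family, fell with -1.10 ± 0.28, Hoxb2, a homeobox gene, with -1.18 ± 0.28, Ttc26, a protein of cilium transport, with -1.42 ± 0.37, and Ngef, a guanine nucleotide exchange factor, with -1.11 ± 0.27. Among abundant genes Ubb, a polyubiquitin gene, rose with 0.37 ± 0.08, and Grn, the progranulin gene, fell with -0.28 ± 0.08.

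**Figure D5:**
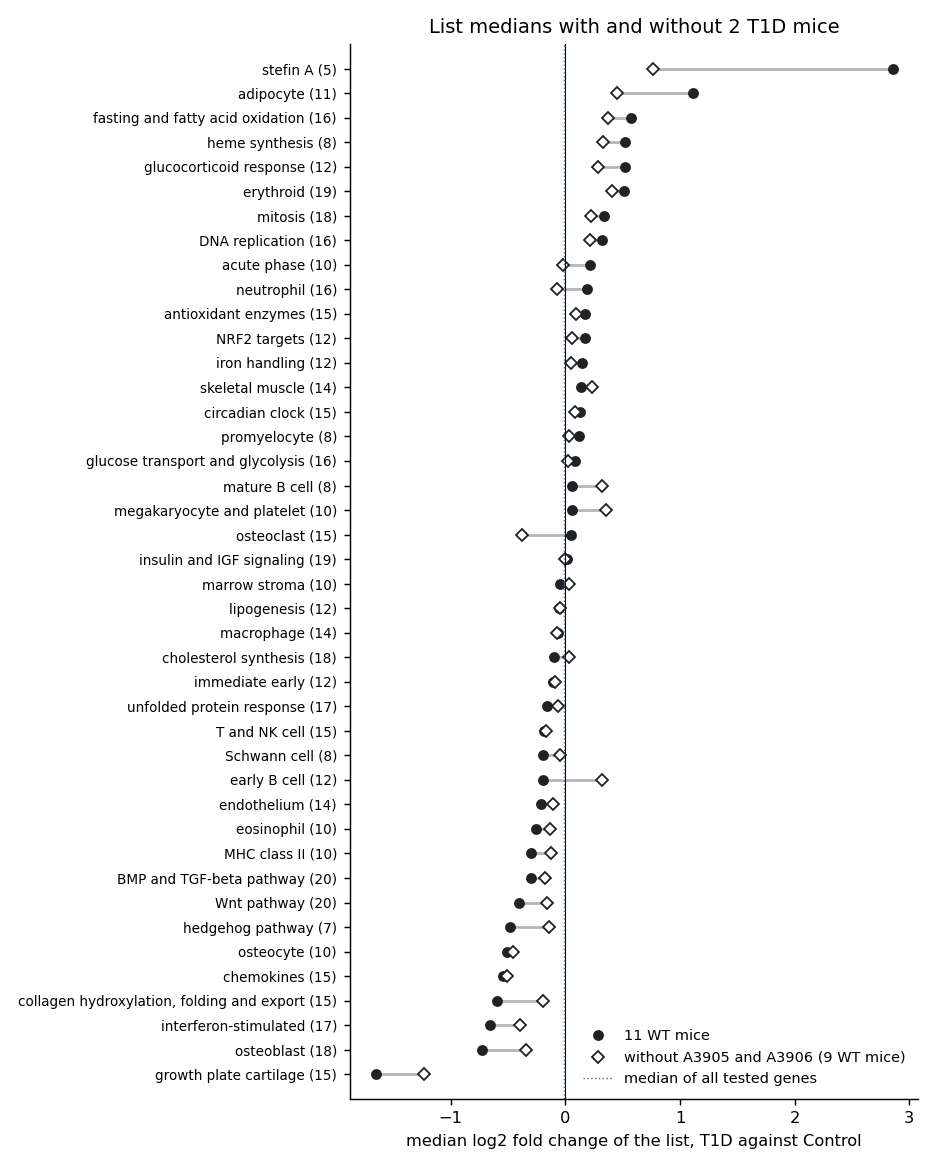
Median log2 fold change of T1D against Control (x axis) over each of 42 gene lists (rows, number of tested genes in brackets) with all 11 WT mice (filled circles) and without A3905 and A3906 (open diamonds); the dotted line is the median of all tested genes. The erythroid list stays near its value (0.51 and 0.41), the osteoblast list shrinks (-0.73 and -0.34), and the early B cell list changes sign (-0.19 and 0.32).

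In Sarm1KO mice, measured in the same fit, T1D against Control called no gene (0%; 452 at an unadjusted p under 0.05), and the test of the difference between genotypes called none either (0%; 1467 at an unadjusted p under 0.05, lowest adjusted p = 0.479; DESeq2 also called 0, with 1495 at an unadjusted p under 0.05). No gene's WT response was therefore shown to differ from that in Sarm1KO. Over the 215 genes that rose in WT the median log2 fold change in Sarm1KO was 0.06, and over the 119 that fell it was -0.06; since the genes were chosen by their WT change, a smaller value in the other genotype is built in. Ccl2 was at -1.55 in WT and -1.40 in Sarm1KO, Adcyap1r1 at 1.77 and 1.37, Angptl4 at 1.31 and 0.62, and Cd4 at -0.67 and -0.49. Fgfr2 stood at -0.57 in WT and 0.05 in Sarm1KO, Dkk1 at -0.96 and 0.05, Ibsp at -0.78 and -0.01, Hbb-bs at 0.90 and -0.01, and Tep1 at -0.55 and -0.13.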

How the data were processed

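Bone RNA was captured with oligo dT, prepared with a strand-marking (dUTP) method, and sequenced as paired ends on a DNBSEQ instrument. The authors filtered reads with SOAPnuke, aligned them with HISAT and Bowtie2 to GRCm38.p6 (names per the labels and the study's methods, versions not given in the sources used here), and deposited RSEM expected counts rounded to whole numbers, with TPM values in a second table. RSEM splits reads among near-identical genes, so values of close copies are uncertain. All 23 columns of both tables were matched to samples by group and mouse number.

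From the deposited estimated counts, genes that reached 10 counts in 5 or more of the 23 libraries were kept (14364 of 67228). All 4 groups were fitted together in edgeR 4.0.16 (R 4.3.3, TMM, quasi-likelihood test, no covariate), as genotype, diabetes, and their interaction, and WT T1D was set against WT Control with Benjamini-Hochberg adjustment over all tested genes at 0.05. CPM values are TMM-scaled and not per length. SE is that of the fitted log2 fold change. List levels are means of log2(CPM + 0.5) relative to the mean of the Control mice. Alternatives were DESeq2 1.42.0, limma 3.58.1 on log2(TPM + 1) and log2(TPM + 0.1) from the deposited TPM, RLE factors, other filters, hemoglobin genes left out, WT libraries alone, the A36 to A39 mice, the A17 series or an erythroid score (the mean log2 level of the erythroid genes) as covariate, and each mouse left out.

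On simulated counts for the 14364 genes, the WT contrast recovered 48% of genes changed by 0.5 and 71% of those changed by 1 (log2), and 2.46% of its calls were false. The simulated noise was independent from gene to gene, so no simulated mouse stood apart as A3905 and A3906 did. These shares therefore cannot be carried over to the measured mice. A check for libraries deposited more than once found none (chi-square per gene of 11.1 to 188 over 25 WT pairs within a group). Named genes met a rule: among called genes with a mean of at least 1 CPM, the 12 largest changes each way, the 5 lowest p and the 5 highest levels each way, and in each of 42 lists the called members, the 3 lowest p, and both extremes; the text leaves out part of these. Genes outside the rule are said to be so. The libraries, gene lists, and tests were chosen with earlier results of these data known. Promoter windows and gene positions came from RefSeq tables for GRCm38.p6, and 14303 of 14364 tested genes had a position. Some genes that met the rule are not reported here.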

Additional observations from a re-analysis of the deposited data

Results flagged for a closer look

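A single mouse lay far from the rest of its group in 13 of 184 groups examined (7.07%), over 90 genes and the osteoblast and erythroid list levels in WT Control and WT T1D, by Dixon's 95% criterion; chance alone flags about 1 in 20 groups. In WT T1D these were Stfa2 (42.57 CPM in A3905, next 14.34) and Stfa2l1 (209.5 CPM in A3905, next 90.33), Nnat (11.6 CPM in A1764, next 2.834) and Igf2 (102.4 CPM in A1764, next 21.29), Tnc (855.6 CPM in A3909, next 626.7), Col10a1 (24.84 CPM in A3909, next 4.503) and Adipoq (93.71 CPM in A3909, next 78.41), and Irs2 (35.21 CPM in A1758, next 29.78). In WT Control they were Stfa1 (2.249 CPM in A3767, next 0.6781) and Cidec (0.1645 CPM in A3767, the lowest, next 1.808), Cat (210.2 CPM in A1757, next 196.2) and Hba-a1 (63300 CPM in A1757, next 46680), and Vpreb1 (22.15 CPM in A3904, next 11.08). Igf2 and Nnat, both imprinted genes, were highest in the same mouse, T1D A1764. A3905 was the mouse in 2 of the 13. Mice that lie far out together mask each other under this criterion, so that count does not measure how far A3905 and A3906 stood apart.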

How the results depend on the processing

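The counts of calls moved with most choices. Against 334 genes (215 higher, 119 lower), DESeq2 called 1002 (593, 409), the A17 series as covariate 802 (479, 323), the A36 to A39 mice 2205 (1114, 1091), limma on log2(TPM + 1) 5154 (83, 5071) and on log2(TPM + 0.1) 5173 (80, 5093), no filter 88 (60, 28), and 0 (0, 0) with the 11 WT libraries alone (2336 at an unadjusted p under 0.05), with the erythroid covariate, or without both A3905 and A3906, the last chosen with that pair's values known. RLE factors (317), the WT filter (322), and leaving out hemoglobin genes (290) stayed within 1.5 times. Leaving out 1 mouse gave 0 to 1264 calls, 0 to 675 higher and 0 to 589 lower. Signs reversed for Prdx2 (-0.027), Igll1 (0.052), Bglap (0.38), Col1a1 (0.10), Smpd3 (0.013), and Car3 (0.287) with the erythroid covariate, for Igll1 (0.32), Ebf1 (0.128), and Spp1 (-0.28) without both mice, for Igll1 without A3905 or A3906 alone (range over single mice left out, -0.544 to 0.007), and for Adipoq on both TPM scales (-0.045 and -0.044); the cause was not tested. No genotype difference was called in the edgeR and DESeq2 fits that hold both genotypes; it was not run on TPM. No paired analysis was possible because mouse numbers are not shared between groups.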

Other observations

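Several lists outside the comparisons above held no called gene. Endothelial markers had a median log2 fold change of -0.21 (0 of 14 called in edgeR, 3 at an unadjusted p under 0.05), macrophage markers -0.06 (0 of 14, 6), marrow stroma -0.05 (0 of 10, 2), cholesterol synthesis -0.10 (0 of 18, 4), and lipogenesis -0.05 (0 of 12, 4). The 10 MHC class II genes had a median of -0.30 with none called and 4 lower at an unadjusted p under 0.05, and the 17 unfolded protein response genes -0.16 with none called and, at an unadjusted p under 0.05, 4 higher and 6 lower (22.2% of all tested genes reached that p). Skeletal muscle genes summed to 1890 to 12200 CPM in Control mice and 3070 to 7740 CPM in T1D mice (median 0.14, none of 14 called in edgeR or at an unadjusted p under 0.05). The amount of muscle left on each bone was not measured, so the source of these messages was not tested.

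The order of T1D mice was not the same for every list. T1D A3909 was nearest to Control for many of the genes above, such as Runx2 and Lifr, but was inside the T1D group for Fgfr2 (51.1 CPM), Angptl4 (62.7 CPM), and Cat (255 CPM). T1D A1764 and A1787, and not A3905 or A3906, were lowest in Sost, a gene the selection rule did not pick.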
